A study of Rattus norvegicus with 6 samples.

Results

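The Wnt module of the lung was described across 3 knockout (KO) and 3 wild-type (WT) rats. Its members were taken by name from the deposited count table: every gene whose name starts with Wnt, Fzd, Sfrp or Dkk followed by a digit, together with Rspo2, Rspo3, Rspo4, Lrp5, Lrp6, Wif1, Axin2, Lgr4, Lgr5, Lgr6, Znrf3 and Rnf43. This gave 49 of the 40995 genes in the table: 19 Wnt ligands, 10 Frizzled receptors, 2 LRP co-receptors, 9 secreted antagonists, 6 R-spondins and Lgr receptors, 2 ubiquitin ligases and Axin2. The KO rats carry a CRISPR/Cas9 edit of Tmprss2, a serine protease gene of lung epithelium, and are named crTMPRSS2 in the labels; WT rats are the controls. All 6 rats were on a Sprague-Dawley background and had no treatment. The sources used here do not give age, sex or whether the KO rats come from 1 founder. Messenger RNA was selected from whole lung tissue, so all cell types of the organ were measured together.

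Wnt proteins are lipid-modified signals that act over short distances. In the canonical branch a Wnt bridges a Frizzled receptor and an LRP5 or LRP6 co-receptor, the destruction complex stops degrading beta-catenin, and beta-catenin with TCF/LEF factors switches on target genes such as Axin2, which feeds back to restrain the pathway. SFRP and WIF1 proteins bind the Wnts themselves and most DKK proteins block the co-receptors, whereas R-spondins bind Lgr receptors and keep the ligases ZNRF3 and RNF43 from removing Frizzled receptors. In the adult mouse lung, Wnt signals from fibroblasts help to maintain progenitors among alveolar type 2 cells, and Wnt2 and Wnt2b are needed to form the lung bud.

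Read counts per library totalled 29933359 to 30514778 in KO and 33033732 to 36895162 in WT. WT replicate 1 stood apart. Its correlation with the other 5 libraries across genes was 0.951 to 0.960 on log2(CPM + 1), where CPM is counts per 1000000 counts, while the other 5 reached at least 0.989 among themselves. The summed CPM of 9 skeletal muscle markers was 15.6 to 43.4 in KO libraries, against 8769 in WT replicate 1 and 17.9 and 21.5 in WT replicates 2 and 3. For 10 squamous epithelium markers the sum was 7.63 to 17.2 CPM in KO libraries, against 3510 CPM in WT replicate 1 and 13.7 and 14.2 CPM in the other WT libraries. The comparison is therefore given with all 6 libraries and again without WT replicate 1. The position of the edit within Tmprss2 is not stated, so its mRNA level does not check the labels; it stood at 49.8 ± 5.69 CPM in KO lungs and 59.4 ± 7.93 CPM in WT lungs (SD, n = 3 each). Its log2 fold change was -0.25 (edgeR adjusted p = 0.508).

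Of the 49 members, 40 had enough reads to be tested, and with all 6 libraries 0 of them passed edgeR's quasi-likelihood test at an adjusted p under 0.05, where 0.0542% of all 18464 tested genes passed. DESeq2 called 2 of the 40 on the same counts, Rspo4 and Wnt11, both lower in KO, where it called 2.71% of all tested genes. Limma-voom with sample quality weights called 7 of the 40, where it called 9.08% of all tested genes. The 7 were Rspo4, Wnt11, Wif1, Wnt2b and Fzd2, lower in KO, and Fzd8 and Fzd4, higher in KO. At an unadjusted p under 0.05 there were 8 members, or 20% of those tested, against 11.3% of all genes; 6 were lower and 2 higher in KO. Without WT replicate 1, 5 of 40 tested members passed, or 12.5%, against 3.99% of 18994 tested genes. Rspo4, Wnt11 and Wif1 fell in KO lungs (3 members lower, against 2.34% of all genes), and Fzd8 and Fzd4 rose (2 members higher, against 1.65%). Only 2 WT libraries stand behind these 5 calls, and each call was lost when at least 2 of the 5 remaining libraries were left out in turn. The median log2 fold change of the tested members was -0.12 with all 6 libraries and -0.08 without WT replicate 1, beside -0.003 and 0.004 over all tested genes. In whole tissue, fewer cells of a type and less RNA per cell cannot be told apart.

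**Figure D1:**
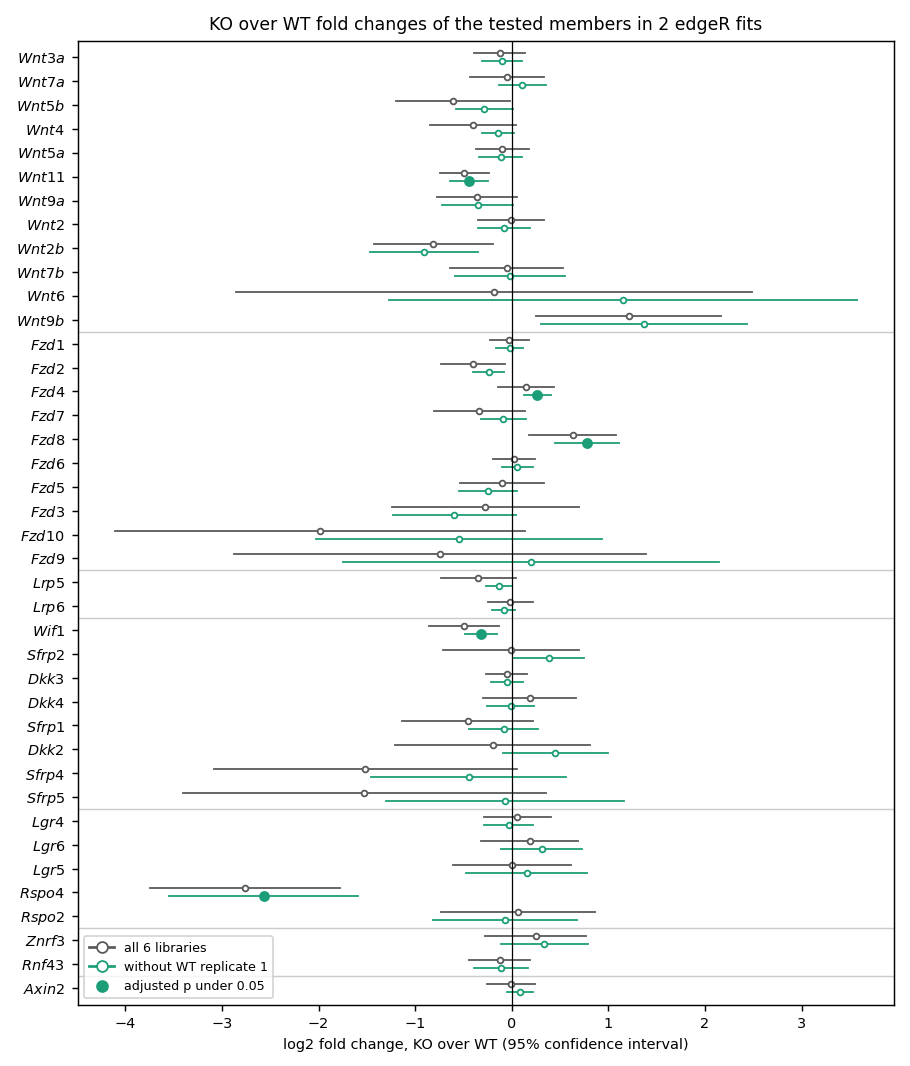
Log2 fold change of KO over WT, with its 95% confidence interval, for each of the 40 tested members, grouped by role from Wnt ligands at the top to Axin2 at the bottom. Grey marks the edgeR fit with all 6 libraries and green the fit without WT replicate 1; filled points are the 5 members with an adjusted p under 0.05, all of them in the second fit.

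The spread of the libraries can be read without a model. All 3 KO values lay below all 3 WT values for 8 of the 40 tested members, or 20%, against 11.4% of all tested genes, and above them for 2, or 5%, also against 11.4%. The 8 were Wnt4, Wnt11, Wnt9a, Wnt2b, Fzd2, Lrp5, Wif1 and Rspo4. The other 2 were Fzd8 and Wnt9b.

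Among the ligands, 6 Wnts made up most of the transcripts. On the authors' FPKM scale, which divides by gene length, Wnt3a, Wnt7a, Wnt5b, Wnt4, Wnt5a and Wnt11 together held 83.4% to 86.8% of the summed Wnt signal in each library. Wnt3a, a canonical ligand (chromosome 10, 44034174 to 44078463 of mRatBN7.2), was the highest in every library but WT replicate 1, with 14.4, 12.7 and 11.9 FPKM in KO replicates 1 to 3 and 14.8, 13.0 and 14.9 FPKM in WT replicates 1 to 3. Wnt7a, known from mouse limb development (chromosome 4, 123863108 to 123908981), had the next highest mean over the 6 libraries, though not in every library. It stood at 11.6, 8.92 and 9.61 FPKM in KO and 12.7, 9.69 and 8.94 FPKM in WT. The groups overlapped for both genes, and their log2 fold changes of -0.12 and -0.05 had 95% confidence intervals of -0.39 to 0.14 and -0.43 to 0.33. Wnt7a stood at 0.11 without WT replicate 1, where its adjusted p was 0.684.

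**Figure D2:**
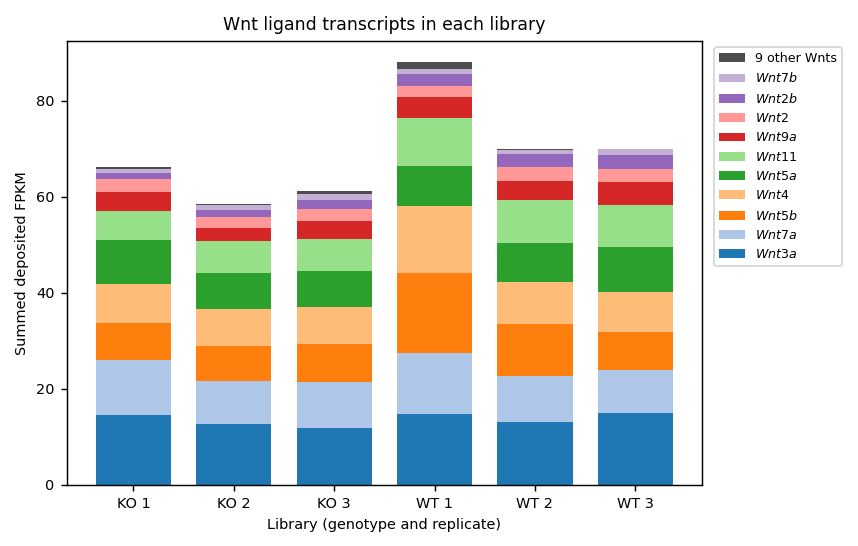
Summed deposited FPKM of the 19 Wnt ligands in each library, stacked by gene, with KO libraries on the left and WT libraries on the right. The sums were 58.5 to 66.2 FPKM in KO and 70.0 to 88.1 FPKM in WT, and Wnt3a was the largest share in every library but WT replicate 1, where Wnt5b was larger at 16.6 FPKM.

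The summed FPKM of all Wnt ligands was 62.0 ± 3.89 in KO and 76.1 ± 10.5 in WT (SD, n = 3 each). The 3 KO libraries reached 66.2, 58.5 and 61.2 FPKM, and the WT libraries 88.1, 70.0 and 70.0 FPKM, so the groups did not overlap. WT replicate 1 was the highest of the 6.

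Wnt11, a ligand known mainly for beta-catenin-independent signalling (chromosome 1, 153134503 to 153154294), was the ligand that passed the test. It stood at 19.7, 21.4 and 21.8 CPM in KO replicates 1 to 3 and at 31.4, 28.9 and 28.3 CPM in WT replicates 1 to 3. Every KO library was below every WT library, and the WT values lay close together with or without WT replicate 1. The log2 fold change was -0.49 with all 6 libraries (SE 0.11, edgeR adjusted p = 0.224) and -0.45 without WT replicate 1 (SE 0.09, adjusted p = 0.0226). In the second fit the call was lost without KO replicate 1 or 2 or WT replicate 2 or 3, with adjusted p values over all 5 removals from 0.0443 to 0.115 and log2 fold changes from -0.47 to -0.40.

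Wnt2b, a canonical ligand of the lung bud in mice (chromosome 2, 192454226 to 192468599), did not pass in either edgeR fit. Its values were 2.07, 2.52 and 3.51 CPM in KO and 4.10, 4.795 and 5.34 CPM in WT, which do not overlap. Its log2 fold change was -0.81 (SE 0.26, edgeR adjusted p = 0.350) with all 6 libraries and -0.91 (SE 0.25, adjusted p = 0.0810) without WT replicate 1. It was the member just outside the call in that fit, and Fzd4, at 0.0466, was the one just inside it. Its relative Wnt2, with a mean of 2.53 FPKM in KO and 2.56 FPKM in WT, had a log2 fold change of -0.01 with an interval of -0.35 to 0.33.

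The other ligands with more than 1 FPKM, Wnt4, Wnt5a, Wnt5b, Wnt7b and Wnt9a, had log2 fold changes of -0.61 to -0.05 with all 6 libraries and none passed. Wnt5b, at -0.61, came to -0.28 without WT replicate 1. The KO libraries held 18.6 to 20.0 CPM, against 41.7 CPM in WT replicate 1 and 27.6 and 20.0 CPM in WT replicates 2 and 3. Wnt5b overlaps Fbxl14 on the opposite strand, and reads of the overlap cannot be assigned because strand handling is not stated. Wnt9b, a canonical ligand known from kidney development, had low counts of 39, 30 and 53 reads in KO and 20, 21 and 14 in WT. Its log2 fold change was 1.21 (SE 0.41, adjusted p = 0.364), and 1.37 without WT replicate 1 (adjusted p = 0.164).

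Wnt6 was close to the filter, with 17, 4 and 16 reads in KO and 30, 12 and 0 reads in WT, and its log2 fold change had an interval of -2.86 to 2.49.

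Ligands at the detection limit formed a further group. Wnt1, Wnt3, Wnt8a, Wnt8b, Wnt10a, Wnt10b and Wnt16 did not pass the filter on low counts. Wnt8a had 0 reads in all 6 libraries, which allows up to 0.0804 to 0.102 CPM per library if 3 reads are taken as the floor. Wnt10a had 0, 2 and 2 reads in KO and 51, 2 and 2 reads in WT. Wnt10b had 10 reads in KO replicate 3, 12 in WT replicate 1 and 0 elsewhere. Wnt genes lie in neighbouring pairs in the rat as in other mammals: Wnt3a and Wnt9a are 15.7 kb apart, Wnt3 and Wnt9b 23.2 kb, Wnt1 and Wnt10b 10.7 kb and Wnt6 and Wnt10a 6.41 kb. Wnt3a averaged 13.6 FPKM over the 6 libraries and Wnt9a 3.91 FPKM.

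**Figure D3:**
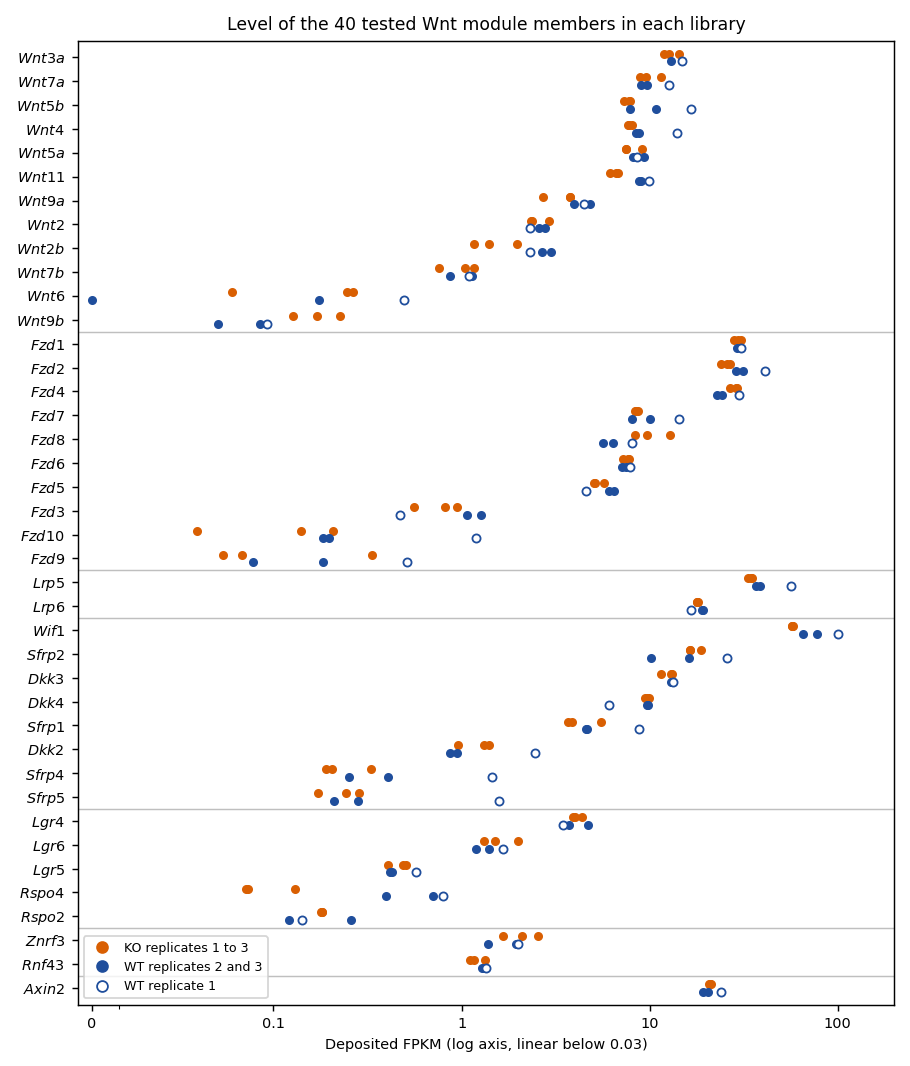
Deposited FPKM of the 40 tested members in each library on a log axis, with KO libraries in orange drawn above WT libraries in blue and WT replicate 1 as an open circle. Wif1 is the highest member, at 56.9 to 57.6 FPKM in KO and 65.4 to 99.8 FPKM in WT, and the KO values of Rspo4 lie far to the left of its WT values.

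Among the Frizzled receptors, 3 were abundant and 2 passed the test without WT replicate 1. Fzd1 (chromosome 4, 29310303 to 29314701) stood at 29.4, 30.7 and 28.03 FPKM in KO and 30.5, 29.2 and 30.5 FPKM in WT. Fzd2 (chromosome 10, 87561866 to 87563776) stood at 26.6, 23.8 and 25.8 FPKM in KO and 40.8, 31.2 and 28.9 FPKM in WT. Fzd1 differed by less than the spread between libraries, with a log2 fold change of -0.03 and an interval of -0.23 to 0.18. Fzd2 was lower in each KO library than in each WT library, but its log2 fold change of -0.40 did not pass (edgeR adjusted p = 0.381; -0.24 and 0.113 without WT replicate 1).

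Fzd8, which binds several canonical Wnts (chromosome 17, 57312924 to 57320551), showed the larger difference of the receptors that passed. Its values were 87.9, 67.1 and 57.8 CPM in KO replicates 1 to 3 and 55.1, 43.8 and 38.8 CPM in WT replicates 1 to 3. All KO libraries were above all WT libraries, but the lowest KO value and the highest WT value were close. The log2 fold change was 0.63 with all 6 libraries (SE 0.19, edgeR adjusted p = 0.322) and 0.78, or 1.72-fold, without WT replicate 1 (SE 0.15, adjusted p = 0.0186). The call was lost without KO replicate 2 or WT replicate 2 or 3, with adjusted p values of 0.00541 to 0.112 and log2 fold changes of 0.60 to 0.91 over the 5 removals.

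Fzd4, a receptor of endothelial cells for Wnts and for norrin (chromosome 1, 143280065 to 143288799), stood at 179, 193 and 195 CPM in KO and 198, 162 and 153 CPM in WT. WT replicate 1 was the highest of the 6, so the groups overlap with it and separate without it. With all 6 libraries the log2 fold change was 0.15 (SE 0.12, edgeR adjusted p = 0.628). It was 0.27 without WT replicate 1 (SE 0.06, adjusted p = 0.0466). Leaving out any further library ended the call, at adjusted p values of 0.0545 to 0.186. The 8 endothelial markers summed to 5355 to 5637 CPM in KO, 10060 CPM in WT replicate 1 and 5526 and 5965 CPM in the other WT libraries, and their median log2 fold change without WT replicate 1 was -0.01. Their part in the result was not tested.

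Fzd5, Fzd6 and Fzd7 averaged 5.51 to 9.66 FPKM, and Fzd3, Fzd9 and Fzd10 were under 1 FPKM. None of the 6 passed in either fit. Fzd10 had 14, 4 and 21 reads in KO and 112, 21 and 22 reads in WT. It passed the filter with 3 WT libraries and 2 KO libraries over the cutoff of 0.315 CPM, and its log2 fold change of -1.99, with an adjusted p of 0.457 in edgeR, came to -0.55 without WT replicate 1. Fzd5 overlaps Ccnyl1 on the opposite strand, with the same limit as for Wnt5b.

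The co-receptors did not pass in either fit, and for both every KO library was below WT replicates 2 and 3. Lrp5 (chromosome 1, 200814247 to 200917581) stood at 34.4, 33.4 and 35.1 FPKM in KO and 56.4, 38.8 and 36.7 FPKM in WT. Lrp6 (chromosome 4, 167266581 to 167400155) stood at 18.1, 17.8 and 17.9 FPKM in KO and 16.6, 18.9 and 19.1 FPKM in WT. Their log2 fold changes were -0.35 (interval -0.74 to 0.04) and -0.01 (interval -0.24 to 0.22) with all 6 libraries. Without WT replicate 1 they were -0.14 (interval -0.264 to -0.007) and -0.08 (interval -0.20 to 0.04), with edgeR adjusted p values of 0.254 and 0.492. Lrp5 was the more abundant co-receptor per length in all 6 libraries.

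**Figure D4:**
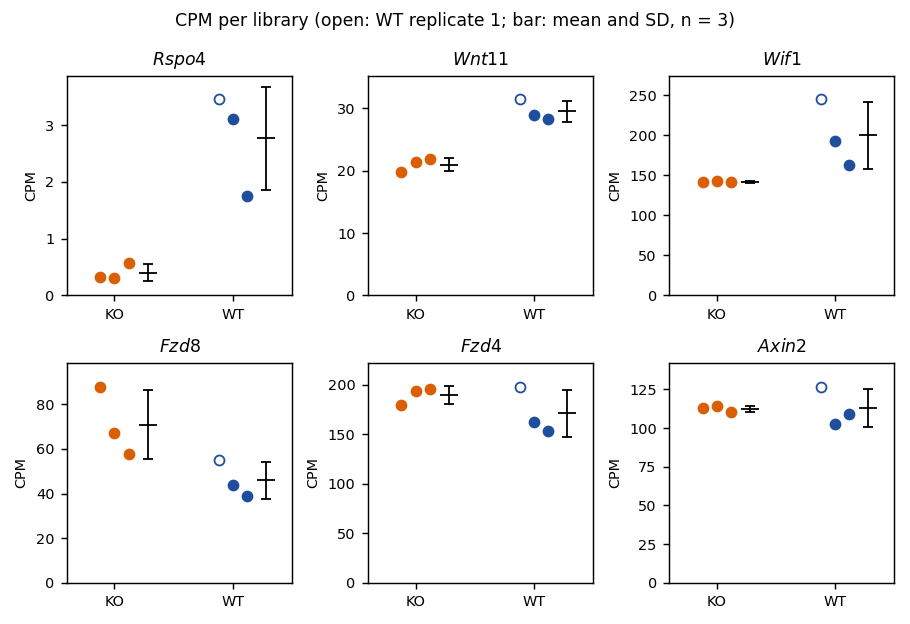
CPM per library for the 5 members that passed without WT replicate 1 and for Axin2, with KO on the left and WT on the right of each panel. Points are libraries, the open circle is WT replicate 1, and the bar gives the mean and SD of 3 libraries; KO lies below WT for Rspo4, Wnt11 and Wif1 and above it for Fzd8.

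The leading antagonist was Wif1, which binds Wnts outside the cell (chromosome 7, 56548058 to 56618364). Per length it was the most abundant member of the module, with a mean of 69.0 FPKM. It stood at 141, 144 and 142 CPM in KO replicates 1 to 3 and 245, 193 and 162 CPM in WT replicates 1 to 3. The KO libraries differed by a few CPM at most, whereas the WT libraries spread widely, and no KO value reached a WT value. The log2 fold change was -0.49 with all 6 libraries (SE 0.15, edgeR adjusted p = 0.328) and -0.32 without WT replicate 1 (SE 0.07, adjusted p = 0.0429). The call was lost without any 1 of the KO libraries or without WT replicate 2, with adjusted p values of 0.0119 to 0.225 over the 5 removals, and with upper quartile normalization (adjusted p = 0.0586). Alveolar type 2 markers moved with it: their 8 genes summed to 18030 to 19790 CPM in KO, 34940 CPM in WT replicate 1 and 21440 and 22710 CPM in WT replicates 2 and 3. None of the 8 was at 0. Without WT replicate 1 all 8 had a log2 fold change below 0, against 49.3% of all tested genes, and the median was -0.19. Of the 8, 2 passed, where 2.34% of all tested genes passed as lower in KO. Their part in the Wif1 result was not tested.

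Sfrp2, which binds Wnts through a Frizzled-like domain (chromosome 2, 169089517 to 169097064), stood at 16.4, 16.5 and 18.6 FPKM in KO and 25.9, 16.2 and 10.2 FPKM in WT. The WT libraries lay on either side of the KO libraries. Its log2 fold change was -0.01 with all 6 libraries and 0.39 without WT replicate 1, with edgeR adjusted p values of 0.992 and 0.247. Dkk3, a divergent member of its family, and Dkk4 averaged 12.8 and 9.09 FPKM and had log2 fold changes of -0.05 and 0.18. Dkk4 held 14.2 to 14.8 CPM in KO, against 9.04 CPM in WT replicate 1 and 14.5 and 14.7 CPM in WT replicates 2 and 3. Sfrp1, Sfrp4, Sfrp5 and Dkk2 were highest of the 6 libraries in WT replicate 1, and their log2 fold changes of -1.52 to -0.20 came to -0.45 to 0.45 without it. Sfrp4 overlaps Nme8 on the opposite strand. Dkk1 had 6 reads in KO replicate 3 and 0 elsewhere and was not tested.

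Rspo4 had the largest fold change of the members that passed. R-spondins amplify Wnt signals, and RSPO4 is known in humans as a gene whose loss prevents nails from forming. Rspo4 (chromosome 3, 140357256 to 140391780) had 10, 10 and 18 reads in KO replicates 1 to 3 and 102, 103 and 65 reads in WT replicates 1 to 3, or 0.324, 0.315 and 0.574 CPM against 3.45, 3.11 and 1.74 CPM. Every KO library was far below every WT library. KO replicates 1 and 2, at 10 reads each, lay just over the filter cutoff of 0.315 CPM, which uses library totals without TMM scaling. The log2 fold change was -2.76 with all 6 libraries (SE 0.42, 95% interval -3.75 to -1.78, edgeR adjusted p = 0.108) and -2.57 without WT replicate 1 (SE 0.44, interval -3.55 to -1.59, adjusted p = 0.0119). Without WT replicate 1 the level was 5.94-fold lower in KO. The call was lost without KO replicate 2 or WT replicate 2 (adjusted p values of 0.0148 to 0.134 over the 5 removals). In the authors' deposited table of their own comparison, which lists 192 genes and none with a log2 fold change smaller than 1.00 in size, Rspo4 was the 1 member listed, at a log2 fold change of -2.78 and an adjusted p of 7.83e-06. At 0.0915 ± 0.0334 FPKM in KO and 0.630 ± 0.208 FPKM in WT (SD, n = 3 each), it was a minor transcript of the whole lung.

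Rspo2 stood at 2.14, 2.18 and 2.17 CPM in KO and 1.66, 1.45 and 3.08 CPM in WT, with a log2 fold change of 0.06 (interval -0.74 to 0.86). Rspo3 was below the filter, with 2, 4 and 2 reads in KO and 4, 8 and 15 reads in WT. Rspo1, which the naming rule for members does not include, was the most abundant R-spondin per length, with a mean of 10.8 FPKM against 0.361 FPKM for Rspo4. It fell to 17.9 ± 2.59 CPM in KO lungs, against 29.3 ± 2.79 CPM in WT lungs (SD, n = 3 each), by 0.78 on the log2 scale without WT replicate 1 (SE 0.12, edgeR adjusted p = 0.00817); with all 6 libraries its log2 fold change was -0.71 (adjusted p = 0.204). Rspo1 is known as a gene of mesothelium. The 10 mesothelial markers, none of them at 0, summed to 302 to 354 CPM in KO and 474 to 496 CPM in WT. Without WT replicate 1, all 9 tested markers had a log2 fold change below 0 and 8 passed, where 2.34% of all tested genes passed as lower in KO. Their part in the R-spondin results was not tested.

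The receptors of the R-spondins did not pass. Lgr4 (chromosome 3, 96447385 to 96550006) stood at 4.39, 3.93 and 4.004 FPKM in KO and 3.48, 3.71 and 4.70 FPKM in WT. Lgr6 (chromosome 13, 46424382 to 46544074) stood at 9.71, 8.54 and 12.9 CPM in KO and 10.6, 7.72 and 9.06 CPM in WT. The groups overlapped for both, and the log2 fold changes were 0.06 (interval -0.29 to 0.40) and 0.19 (interval -0.32 to 0.69). Lgr5, the intestinal stem cell marker, averaged 0.467 ± 0.0528 FPKM in KO and 0.470 ± 0.0863 FPKM in WT.

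The ligases that remove Frizzled receptors, and Axin2, are themselves targets of beta-catenin. Znrf3 (chromosome 14, 80157854 to 80313456) stood at 2.56, 2.09 and 1.66 FPKM in KO and 2.00, 1.38 and 1.95 FPKM in WT. Rnf43 (chromosome 10, 72461508 to 72535977) stood at 1.16, 1.32 and 1.11 FPKM in KO and 1.35, 1.28 and 1.31 FPKM in WT. Their log2 fold changes of 0.25 and -0.13 had intervals of -0.27 to 0.77 and -0.44 to 0.19.

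Axin2 (chromosome 10, 93893830 to 93927042) stood at 113, 114 and 111 CPM in KO replicates 1 to 3 and at 127, 103 and 109 CPM in WT replicates 1 to 3. The KO libraries lay within the range of the 3 WT libraries, but each was above WT replicates 2 and 3. The log2 fold change was -0.01 with all 6 libraries (interval -0.25 to 0.24, edgeR adjusted p = 0.9746) and 0.08 without WT replicate 1 (interval -0.05 to 0.22, adjusted p = 0.539).

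Promoter windows from RefSeq, 250 bases before to 50 after the annotated start on GRCr8, were found for 32 of the 49 members, among them 4 of the 5 that passed. The core letters of a TCF/LEF site, CTTTGA on either strand, were present in 4 of the 32 windows, or 12.5%, against 15.9% of 27457 windows of all genes. They were in Axin2, Fzd7, Dkk1 and Wnt8a, and in 0 of the 4 members that passed. The windows of Axin2 and Fzd7 are shown as examples that hold the letters more than once. Dkk1, not shown, also holds them more than once, at -153 and -96. Those of Wnt11 and Fzd8 are shown because these genes moved in opposite directions. Capitals mark CTTTGA or, on the other strand, its reverse complement. In Axin2 (chr10:94398535-94398834, plus strand) they start at -232 and -132 from the annotated start, and in Fzd7 (chr9:68425288-68425587, plus strand) at -248, -230 and -1. Wnt11 is at chr1:162549110-162549409 and Fzd8 at chr17:62009744-62010043, both on the plus strand. The window of Axin2 held 45.7% G and C, and those of Fzd7, Wnt11 and Fzd8 64.3%, 61.7% and 65.3%. The median was 65.3% over the 32 member windows and 52.3% over all genes. The shares of windows with CTTTGA were not adjusted for this difference.
Axin2: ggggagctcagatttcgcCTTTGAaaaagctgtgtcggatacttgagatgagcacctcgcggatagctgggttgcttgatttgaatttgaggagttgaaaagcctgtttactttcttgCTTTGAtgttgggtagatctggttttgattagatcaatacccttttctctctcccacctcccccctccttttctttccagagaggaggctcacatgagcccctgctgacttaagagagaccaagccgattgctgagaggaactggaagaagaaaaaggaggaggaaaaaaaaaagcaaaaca
Fzd7: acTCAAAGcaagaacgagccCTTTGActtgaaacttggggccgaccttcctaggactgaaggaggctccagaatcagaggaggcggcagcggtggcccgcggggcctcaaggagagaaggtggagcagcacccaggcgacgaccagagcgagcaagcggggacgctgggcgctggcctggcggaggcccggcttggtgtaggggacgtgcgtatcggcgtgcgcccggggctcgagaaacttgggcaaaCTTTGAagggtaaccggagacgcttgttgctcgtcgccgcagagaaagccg
Wnt11: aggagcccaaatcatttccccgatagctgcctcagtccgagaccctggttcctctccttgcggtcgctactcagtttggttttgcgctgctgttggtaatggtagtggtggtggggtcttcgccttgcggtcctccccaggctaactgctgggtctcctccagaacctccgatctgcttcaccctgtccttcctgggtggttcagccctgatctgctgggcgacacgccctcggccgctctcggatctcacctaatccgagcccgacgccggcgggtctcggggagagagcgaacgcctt
Fzd8: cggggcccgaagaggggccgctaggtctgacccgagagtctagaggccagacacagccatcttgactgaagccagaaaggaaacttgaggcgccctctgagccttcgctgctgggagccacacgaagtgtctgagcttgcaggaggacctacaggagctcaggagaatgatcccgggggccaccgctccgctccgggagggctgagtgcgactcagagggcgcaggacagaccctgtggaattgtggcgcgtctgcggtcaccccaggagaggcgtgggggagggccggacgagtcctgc

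WT replicate 1 differed from the other 5 libraries in the module as well. It was the highest of the 6 libraries for 22 of the 40 tested members, or 55%, against 36.4% of all tested genes, and the lowest for 6, against 37.3% of all tested genes. Antagonists had 6 of 8 members and Frizzled receptors 6 of 10 at their highest there. The CPM ratio of WT replicate 1 to the mean of the other 5 libraries was 7.67 for Fzd10, 6.51 for Sfrp5 and 5.15 for Sfrp4, and 0.499 for Fzd3 and 0.621 for Dkk4. The muscle and squamous markers given above were highest in the same library; their part in these ratios was not tested.

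**Figure D5:**
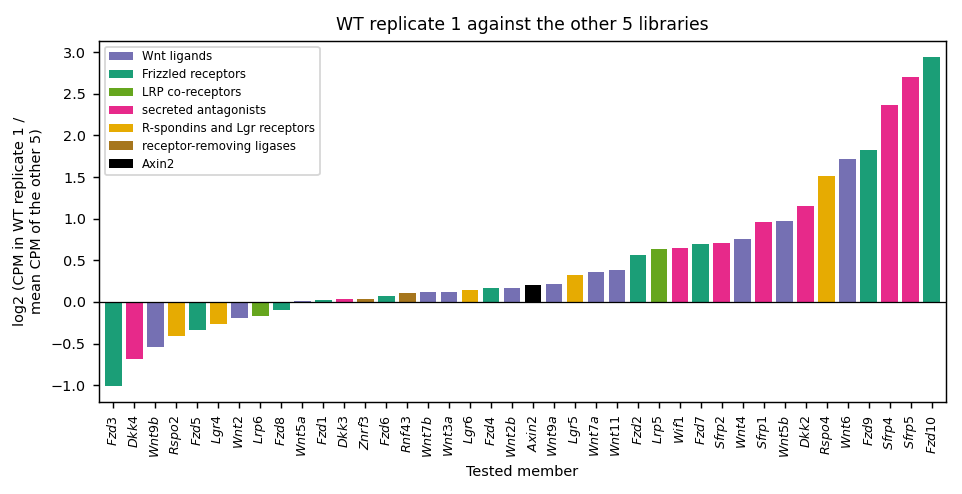
Log2 ratio of the CPM in WT replicate 1 to the mean CPM of the other 5 libraries for each tested member, sorted by value and coloured by role. Members on the right, led by Fzd10, Sfrp5 and Sfrp4, were higher in that library, and Fzd3 and Dkk4, on the left, were lower.

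The rest of the pathway was read from 97 further genes in 5 lists, of which 93 were tested. With all 6 libraries 0 passed in edgeR, 11, or 11.8%, had an unadjusted p under 0.05, against 11.3% of all genes. DESeq2 called 4, Rspo1, Gpc3, Sp5 and Lypd6, of which Lypd6 passed the filter on low counts only through the KO libraries, where it is high. Without WT replicate 1, 5 passed, or 5.38%, against 3.99% of all tested genes: Rspo1, Gpc3 and Tcf4 fell, and Tpbg and Tcf7 rose. When each of the 5 remaining libraries was left out in turn, Gpc3 kept its call in all 5 fits, Rspo1 in 4 (lost without WT replicate 2), Tcf4 in 1 and Tpbg and Tcf7 in 0. The median log2 fold change was -0.07 and -0.04 in the fits with and without WT replicate 1.

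Of the genes for Wnt secretion, processing and binding outside the cell, 3 of 14 tested passed without WT replicate 1. Gpc3, a heparan sulphate glypican that binds Wnts and hedgehog proteins, stood at 336, 327 and 301 CPM in KO replicates 1 to 3 and at 547, 500 and 474 CPM in WT replicates 1 to 3. The groups were well separated. Gpc3 had a log2 fold change of -0.66 with all 6 libraries (SE 0.10 and adjusted p = 0.117 in edgeR) and -0.60 without WT replicate 1 (SE 0.06, adjusted p = 0.000836). Tpbg, a membrane glycoprotein known to inhibit Wnt signalling, stood at 17.2 ± 0.714 CPM in KO and 15.3 ± 5.83 CPM in WT (SD, n = 3 each) and rose by 0.53 without WT replicate 1 (adjusted p = 0.0286). Its log2 fold change over all 6 libraries was 0.17 (adjusted p = 0.771), and WT replicate 1, at 22.04 CPM, was above every KO library. Lypd6, which binds LRP6, stood at 0.842, 1.26 and 0.861 CPM in KO and 0.271, 0.302 and 0.161 CPM in WT; 3 KO and 0 WT libraries were over the filter cutoff of 0.315 CPM, so no test is drawn on. Angptl4 had a log2 fold change of 0.92 (adjusted p = 0.401).

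In the destruction complex and cytoplasmic list, 0 of 26 tested genes passed in either fit, with a median of -0.05 in both. Dvl2, an adaptor that carries the signal from Frizzled, and Dact3 had the smallest p values with all 6 libraries, where they had log2 fold changes of -0.39 and -0.29 (edgeR adjusted p = 0.350 and 0.432). Of the nuclear complex, 1 of 16 passed without WT replicate 1. Tcf7, a TCF factor that is also abundant in T cells, rose to 69.0, 69.0 and 85.0 CPM in KO replicates 1 to 3, against 49.9, 54.9 and 57.7 CPM in WT replicates 1 to 3, by 0.40 on the log2 scale in that fit (SE 0.10, adjusted p = 0.0481), and did not pass with all 6 libraries (0.46, adjusted p = 0.268). The 8 NK and T cell markers, none at 0, summed to 181 to 196 CPM in KO and 36.7 to 106 CPM in WT. Without WT replicate 1 all 8 had a log2 fold change above 0 and 4 passed, where 1.65% of all tested genes passed as higher in KO. The part of these markers in the Tcf7 result was not tested. Tcf7l1 and Ctnnbip1 had log2 fold changes of -0.35 and -0.50 and did not pass.

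Among 20 target genes of beta-catenin, 2 passed without WT replicate 1, Tcf7 and Tcf4. Tcf4, listed here as a target, encodes an E-protein and is not the TCF partner of beta-catenin that has the same older name. Without WT replicate 1 it fell by 0.31 (SE 0.07, edgeR adjusted p = 0.04999), just inside the threshold and outside it with RLE or upper quartile normalization. Tcf4 stood at 81.6 ± 0.997 CPM in KO (SD, n = 3) and at a mean of 101 CPM in WT replicates 2 and 3. Over all 3 WT libraries it was 89.5 ± 21.6 CPM. With all 6 libraries its log2 fold change was -0.13 (adjusted p = 0.744), and WT replicate 1, at 66.3 CPM, was below every KO library. Sp5, a feedback repressor of Wnt targets, stood at 7.09, 7.22 and 5.71 CPM in KO and 16.5, 11.01 and 9.28 CPM in WT. These did not overlap, with a log2 fold change of -0.88 (adjusted p = 0.291), or -0.60 and 0.0799 without WT replicate 1. Zcchc12 had a log2 fold change of 0.68 (adjusted p = 0.379). Of the receptors and polarity genes of the beta-catenin-independent branch, 0 of 23 passed in either fit. Ror1, a co-receptor of Wnt5a, stood at 5.81 ± 0.495 CPM in KO and 8.68 ± 0.710 CPM in WT, with a log2 fold change of -0.58 (adjusted p = 0.301), and Rhoa had one of -0.26.

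Fibroblasts are a main source of Wnts and of Sfrp and Dkk proteins in the lung. The 11 fibroblast markers, none at 0, summed to 4689 to 4970 CPM in KO, 10150 CPM in WT replicate 1 and 6022 and 6828 CPM in WT replicates 2 and 3. Without WT replicate 1, 9 of them had a log2 fold change below 0, against 49.3% of all tested genes, and the median was -0.21. Of the 11, 3 passed as lower in KO, where 2.34% of all tested genes did. The 8 markers of club and ciliated cells summed to 5605 to 6655 CPM in KO and 3896 to 4929 CPM in WT, while the 8 alveolar type 1 markers summed to 6292 to 6832 CPM in KO and 6455 to 6764 CPM in WT. The part of these cell types in the values of the members was not tested.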

How the data were processed

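Lung mRNA of 3 KO and 3 WT rats was sequenced as paired 150 base reads, and the labels call the rats biological replicates of a single batch. Groups were taken from the sample titles. Raw counts of reads for each gene and FPKM values were deposited by the authors, together with a table of their own comparison that holds log2 fold changes, p-values and a normalized signal (counts over size factors). The submitters' processing notes name, with no roles, DESeq2 1.42.0, featureCounts 2.0.6, HISAT2 2.2.1, CASAVA and StringTie 2.2.3, and the build mRatBN7.2; the sources used here give neither settings nor strand handling. Even counts outnumbered odd ones among low counts (3355 genes at 2 to 10 against 1802 at 1 to 9 in KO replicate 1), a pattern that arises if each mate adds its own count; independent fragments may then be fewer. The counts assigned to genes came to 76.3% to 83.7% of clean reads.

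Counts were fitted over all genes with edgeR 4.0.16 in R 4.3.3 (TMM, filterByExpr at its settings of 10 counts per library and 15 in total, quasi-likelihood test, Benjamini-Hochberg adjustment over all tested genes, threshold 0.05), with all 6 libraries and without WT replicate 1; intervals are 95%. CPM uses TMM library sizes. Coordinates are those of the count table unless GRCr8 is named. The fit was also run on simulated counts with known changes, in which no library was set apart. That run cannot say how WT replicate 1 affects the fit. Libraries were compared by chi-square and none was a repeat (mean of 7.85 per gene for the closest pair). Alternatives were RLE and upper quartile normalization, DESeq2 1.42.0, limma 3.58.1 (voom with sample quality weights; log2 FPKM with a pseudocount of 1 or 0.1), no filter, a replicate block and leaving out libraries.

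Values per library are given for members past the threshold in either fit, for the 2 with the highest FPKM of each role and for the 5 with the smallest p in each fit; of the pathway lists, for genes past the threshold and up to 2 more per list. Other genes are given by range or named after their values were seen. The members and lists were chosen with earlier results of these data known. Of 97 pathway genes and 108 marker entries, all matched the table, 2 of the markers through RefSeq synonyms.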

Additional observations from a re-analysis of the deposited data

How the results depend on the processing

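With all 6 libraries, the count of members called was 0 under RLE, upper quartile, FPKM, unfiltered and replicate block fits, but 2 with DESeq2 and 7 with quality weights; without 1 library it was 0 to 5. Pathway genes called were 0, but 4 with DESeq2 and 9 with quality weights, and 0 to 5 without 1 library. Genes called in all were 10, but 501 with DESeq2, 1676 with quality weights, 2 with the replicate block, and 1 to 758 without 1 library, the highest without WT replicate 1. Same-numbered libraries did not deviate together (correlations -0.12, 0.05 and -0.12), and 0 of 6 correlated best with their own number.

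Starting without WT replicate 1, members called were 5 with TMM, RLE or quality weights. The count was 4 with upper quartile normalization, 6 with DESeq2, which added Wnt2b, and 7 unfiltered, which added Wnt2b and Sfrp2. It was 0 on log2(FPKM + 1) and 0 on log2(FPKM + 0.1), and 0 to 4 with a KO library also left out. Where leaving out a further library left 1 WT library, it was assumed to vary like the KO libraries. Pathway genes called were 5, but Tcf4 was lost under RLE or upper quartile normalization and Tcf7 under quality weights. DESeq2 added Sp5, and Lypd6 with the limit given above. On the FPKM scales 1 and 1 were called, unfiltered 10, and Gpc3 and Rspo1 alone with any 1 KO library left out. Genes called in all were 758, but 1188 with DESeq2, 180 and 236 on the FPKM scales, 1707 unfiltered and 447, 233, 522, 313 and 485 without KO replicate 1, 2 or 3 or WT replicate 2 or 3. The median of the tested members was -0.08 and ranged from -0.09 to -0.004 with a library left out. On log2(FPKM + 1) and log2(FPKM + 0.1), Rspo4 had adjusted p values of 0.0799 and 0.0561 in limma. The cause of these moves was not tested.

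Signs changed for members that were near 0 with all 6 libraries and were called in neither main edgeR fit. Of these, Sfrp2 was called without WT replicate 1 when low counts were not filtered. With all 6 libraries, upper quartile normalization gave 0.021 for Fzd1, 0.032 for Lrp6, 0.045 for Sfrp2 and 0.04 for Axin2. Quality weights gave 0.048 for Wnt7a, 0.003 for Fzd1, 0.21 for Sfrp2 and 0.11 for Axin2. Sfrp2 stood at 0.072 and 0.081 on the FPKM scales and 0.087 with the replicate block. Leaving out 1 library moved Fzd1 from -0.062 to 0.007, Lrp6 from -0.081 to 0.026, Sfrp2 from -0.28 to 0.39, Axin2 from -0.073 to 0.083, Wnt7a from -0.16 to 0.11, Lgr4 from -0.032 to 0.20 and Lgr6 from -0.002 to 0.31. In the fit without WT replicate 1, Fzd1 stood at 0.006 with upper quartile normalization and from -0.053 to 0.017 with a library left out (0.005 without WT replicate 3), Wnt7a from -0.002 to 0.19 and Lgr4 from -0.19 to 0.14. Upper quartile normalization moved the median of all genes to 0.044. Depth limits the members with few reads: with all 6 libraries the SE was 1.14 for Wnt6, 0.909 for Fzd9 and 0.905 for Fzd10.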

Other observations

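The genes around Wnt11 were not part of the module and were looked at after its value was seen. Within 1 Mb on either side of Wnt11, 6 of 26 tested genes passed without WT replicate 1, or 23.1%, against 3.99% of all tested genes. Serpinh1, the collagen chaperone HSP47, fell to 449.5 ± 35.7 CPM in KO, against 862 ± 189 CPM in WT (SD, n = 3 each), by 0.74 on the log2 scale in that fit (edgeR adjusted p = 0.00043). Lrrc32, which displays latent TGF-beta on the cell surface, fell by 0.63, and Tsku, a secreted protein known in mice to bind Frizzled 4, fell by 0.61, with adjusted p values of 0.0168 and 0.0414. Arrb1, Capn5 and the olfactory receptor gene Olr35 rose by 0.23, 0.42 and 1.92. Arrb1 and Capn5 overlapped between the groups when WT replicate 1 was included, and with all 6 libraries none of the 6 passed, with adjusted p values of 0.108 to 0.790. Around Rspo4, Fzd4, Fzd8 and Wif1, 0 of 47, 14, 11 and 18 tested neighbours passed.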
